A study of Homo sapiens with 24 samples.

Results

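The genes described here encode proteins of the small (40S) subunit of the cytosolic ribosome. They are RPSA, RPS2, RPS3, RPS3A, RPS4X, RPS6, RPS7, RPS9, RPS10, RPS12, RPS13, RPS14, RPS15, RPS15A, RPS16, RPS18, RPS19, RPS20, RPS21, RPS23, RPS24, RPS25, RPS26, RPS27, RPS27A, RPS28, RPS29, FAU and RACK1. They were chosen by name, without their pseudogenes, and make 29 of the 60609 gene rows of the deposited table. All 29 were found and all 29 passed the filter on low values, which left 16062 genes for testing. The list does not hold every 40S protein gene.

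RNA was measured in A549 cells, an established human cell line from a lung adenocarcinoma. Before treatment the cells spent 48 h with a Dharmacon SMARTpool siRNA, either against BOP1 (siBOP1) or, as the control, against firefly luciferase (siFLuc), a gene that human cells lack. They then received a mock treatment or interferon beta (IFN) at 1000 U/mL, and RNA was taken at 8 h or 12 h. The 8 groups had 3 libraries each, prepared from polyadenylated RNA, so no value here measures protein, ribosomes or translation.

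The 40S subunit carries the mRNA and holds the decoding centre, and its proteins are divided by position into the head and the body with the platform. Ribosomal protein mRNAs are among the most abundant in growing cells. Most of them begin with a 5′ terminal oligopyrimidine (TOP) tract, a C at the first transcribed base followed by further C or T, through which mTOR signalling controls their translation. BOP1 acts with PES1 and WDR12 in the maturation of the large (60S) subunit, not of the 40S.

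The first bases of the transcripts that the results below turn on are printed from RefSeq (GRCh38.p14), from 10 bases before the annotated start to 20 bases from it, 5′ to 3′ on the transcribed strand. Capitals mark the unbroken pyrimidine run that opens the transcript, where it begins with C and holds at least 5 bases. RPSA, RPS21, RPS16 and RACK1 fell with siBOP1, and RPS3A and RPS6 fell with IFN. RPS19 is the most abundant member and RPS24 has the longest run.
RPSA (chr3:39406710-39406739, plus strand): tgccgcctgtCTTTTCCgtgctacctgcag
RPS21 (chr20:62387093-62387122, plus strand): ctagctgcttCCTTTCTCTCTCgcgcgcgg
RPS16 (chr19:39435930-39435959, minus strand): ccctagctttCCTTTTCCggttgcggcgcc
RACK1 (chr5:181243887-181243916, minus strand): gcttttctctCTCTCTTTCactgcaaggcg
RPS3A (chr4:151099618-151099647, plus strand): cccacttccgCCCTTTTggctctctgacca
RPS6 (chr9:19380217-19380246, minus strand): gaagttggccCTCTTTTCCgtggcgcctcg
RPS19 (chr19:41860245-41860274, plus strand): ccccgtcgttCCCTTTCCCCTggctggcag
RPS24 (chr10:78033853-78033882, plus strand): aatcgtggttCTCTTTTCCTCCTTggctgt

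RPS7, RPS26 and RPS4X also fell with IFN but have no such run at the RefSeq start, so their windows carry no capitals.
RPS7 (chr2:3575250-3575279, plus strand): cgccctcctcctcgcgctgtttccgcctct
RPS26 (chr12:56041908-56041937, plus strand): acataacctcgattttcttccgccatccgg
RPS4X (chrX:72277229-72277258, minus strand): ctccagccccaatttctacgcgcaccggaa
A window was matched for 26 members. No entry was matched for RPS2, RPS15A or RPS20. Of the 26, 20 (76.9%) opened with the run at one of their RefSeq starts, against 5.14% of the 27305 genes with a window. The runs of these members were 6 to 14 bases long, with a median of 9. RPS7, RPS15, RPS26, RPS28, RPS29 and RPS4X had none. RPS19 and RPS27A have more than one RefSeq start, and each opens with the run at one of them. The run was read on the transcribed strand only, and its absence says only that these letters are not at that start. Among the genes of the large subunit 28 of 38 had it, and among the small-subunit assembly factors 3 of 51.

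Together the 29 genes held 4.85% to 7.15% of all TPM (transcript abundance corrected for length and scaled so that each library has the same sum) in the 24 libraries. RPS19, which is mutated in some families with Diamond-Blackfan anaemia, was the most abundant. Its mean was 6521 TPM over all libraries (lowest 5643, highest 7641), and it ranked 12 among all rows. RPS16, a head protein that reaches the P site, followed with 4237 TPM, and RPS27, a zinc-finger protein of the platform, with 3924 TPM. Every RPS19 library lay above every RPS16 library, whereas RPS16 (3493 to 5236 TPM) and RPS27 (3250 to 4774 TPM) overlapped.

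The other end of the order was held by 3 genes. FAU, made as a fusion of a ubiquitin-like protein with RPS30, had a mean of 758 TPM (662 to 915). RPS28 had 326 TPM (282 to 382) and RPS26, at the mRNA exit, had 285 TPM (205 to 367). The remaining 26 members averaged over 1000 TPM, and no library of RPS28 or RPS26 reached the lowest library of FAU or of those 26. The highest FAU library lay above the lowest of RPSA, which had 828 TPM. The order of the members was nearly the same in all groups: Spearman's rho between group means of the 29 genes ran from 0.898 to 0.995 over the 28 pairs of groups, which share library preparation and transcript models.

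**Figure D1:**
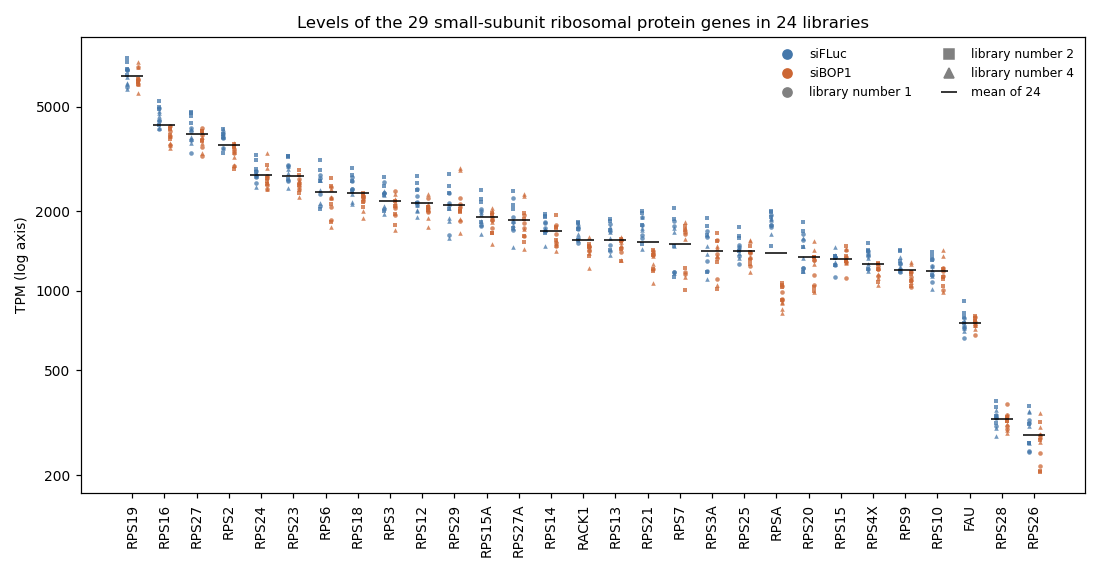
TPM of the 29 genes (log axis) in the 24 libraries, ordered by mean, with siFLuc in blue, siBOP1 in orange, the library number as the marker and the mean of all libraries as a line. RPS19 stands alone at the top (5643 to 7641 TPM), RPS28 and RPS26 at the bottom (205 to 382 TPM), and RPSA is the gene whose blue and orange points lie farthest apart.

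Pseudogenes of these genes also have rows, and how reads shared with them were assigned is not given in the sources used here. For most members their summed TPM was a small share of the parent's. RPS28 was the exception: its 5 pseudogene rows held 199% to 275% of the TPM of RPS28 itself, depending on the group, so the low level of RPS28 is uncertain. The 53 pseudogene rows of RPS3A held 13.9% to 16.6% of its TPM, the 36 of RPS26 5.90% to 13.0% and the 15 of RPS7 8.27% to 11.5%.

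The siRNA check came first. BOP1 had 66.4 ± 10.7 TPM (SD, n = 3) in siFLuc mock cells at 8 h and 18.6 ± 0.750 in siBOP1, and its log2 fold change lay between -2.00 and -1.69 over the 4 matched comparisons. The epithelial keratins KRT8 (2086 to 3803 TPM) and KRT18 (1785 to 2862 TPM) and the A549-typical reductases AKR1B10 and NQO1 were high in every library, while EPCAM was low (1.92 to 5.48 TPM). Of the markers of other cells, PTPRC and CD3E were at or near 0, CD14 had 1.81 to 5.26 TPM and COL1A1 5.37 to 19.3 TPM. Mitochondrially encoded genes held 6.86% to 15.9% of TPM, with the lowest share in the siFLuc mock 12 h library numbered 4. Libraries are given below in the order of their column numbers, which are 1, 2 and 4. In bulk RNA, fewer cells and less RNA per cell cannot be told apart. The labels do not say whether the 3 libraries of a group came from separate cultures, so the p-values measure the spread between these samples. TPM keeps no sequencing depth, which is therefore unknown.

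The comparison of siBOP1 with siFLuc asks how depletion of a 60S maturation factor moved mRNAs of the other subunit. RPSA stood at 50.9% of its siFLuc mean in mock cells at 8 h, 51.0% at 12 h, 53.0% with IFN for 8 h and 54.8% with IFN for 12 h, and it fell in all 4 comparisons. RPS21 fell in 3 of them. RPS2, RPS16 and RACK1 fell in mock cells at 8 h. No member rose in any of the 4, where 1.49%, 0.903%, 1.25% and 0.392% of all genes rose.

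A gene is said to have risen or fallen where limma's adjusted p (Benjamini-Hochberg over all 16062 genes) was under 0.05. In mock cells at 8 h, 5 of 29 members fell, against 0.666% of all tested genes. At 12 h in mock cells 2 fell (0.697% of all genes), 2 fell with IFN for 8 h (0.760%) and 1 with IFN for 12 h (0.268%). Libraries with the same number deviated together, and with that number as a block the fallen members were 11, 6, 5 and 5 in the same order, while the share of all genes that fell was 2.58%, 3.35%, 3.84% and 1.61%. With median-of-ratios scaling 2, 1, 1 and 1 fell, which was RPSA each time, with RPS21 in the first. The share of all genes that fell under this scaling is not given here, so these counts are not set against a background.

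Most members lay slightly lower with siBOP1. The median log2 fold change of the 29 genes was -0.20 in mock cells at 8 h, -0.14 at 12 h, -0.13 with IFN for 8 h and -0.10 with IFN for 12 h, while the medians of all tested genes were 0.03, 0.00, -0.01 and -0.01. Below 0 were 29, 27, 25 and 25 members. The size of these medians depended on the scale and on single libraries: with quantile normalization they were -0.09, -0.03, -0.09 and -0.05, and under IFN at 8 h the median was -0.06 without siFLuc library 2 and -0.07 without siBOP1 library 1. In 14 members every siBOP1 library lay below every siFLuc library in mock cells at 8 h (7.70% of all genes), in 14 at 12 h (7.55%), in 7 with IFN for 8 h (9.92%) and in 9 with IFN for 12 h (5.61%).

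**Figure D2:**
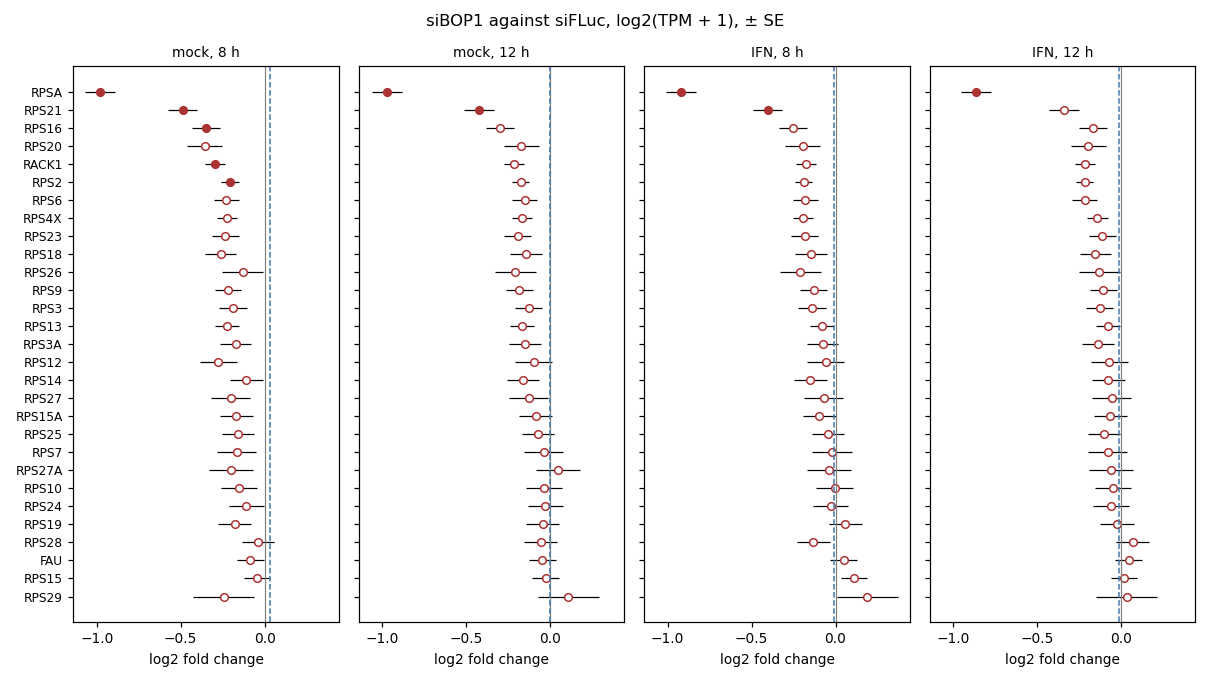
Log2 fold change (log2(TPM + 1) scale) of each member, siBOP1 against siFLuc, in 4 panels for treatment and time, with bars for limma's standard error, filled points for adjusted p under 0.05, the grey line at 0 and the dashed line at the median of all genes. RPSA lies between -0.98 and -0.87 in every panel, RPS21 between -0.49 and -0.34, and most other points lie between -0.35 and 0.1.

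RPSA, a body protein first described as a laminin receptor precursor, was measured at 1752, 1999 and 1849 TPM in siFLuc mock cells at 8 h and at 922, 1071 and 856 TPM in siBOP1. At 12 h the mock values were 1936, 2015 and 1891 TPM with siFLuc and 1041, 1033 and 906 TPM with siBOP1. All 12 siBOP1 libraries lay below all 12 siFLuc libraries, including those under IFN. Under IFN the siFLuc libraries had 1783, 1900 and 1879 TPM at 8 h and 1772, 1483 and 1646 TPM at 12 h. The siBOP1 libraries had 987, 1056 and 903 TPM at 8 h and 935, 923 and 828 TPM at 12 h. On the log2(TPM + 1) scale RPSA changed by -0.98 and -0.97 in mock cells and by -0.92 and -0.87 under IFN (SE 0.09). Limma's adjusted p was 2.77e-06, 3.05e-06, 1.24e-05 and 2.78e-05.

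The drop of RPSA was not shared in size by the other members. RPSA made up 2.60% to 3.20% of the members' summed TPM in the siFLuc libraries and 1.50% to 1.94% in the siBOP1 libraries. It passed the threshold in each comparison under all 10 alternative settings and with any 1 library of the compared groups left out. Its 74 pseudogene rows moved along with it, from a sum of 38.1 ± 7.25 TPM (SD, n = 3) in siFLuc mock cells at 8 h to 18.1 ± 3.69 in siBOP1, and made up 1.50% to 2.04% of the gene's own TPM. The gene lies at chr3:39406689-39412542 in GENCODE 29, which is not stated to be the authors' annotation.

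RPS21, a small protein that neighbours RPSA and RPS2 on the subunit, had 1913, 1976 and 1914 TPM in siFLuc mock cells at 8 h and 1419, 1368 and 1352 TPM in siBOP1. At 12 h the mock values were 1772, 2001 and 1694 TPM against 1379, 1424 and 1266 TPM. RPSA and RPS21 were the only members in which all siBOP1 libraries lay below all siFLuc libraries. Under IFN RPS21 had 1587, 1772 and 1725 TPM against 1212, 1213 and 1421 TPM at 8 h, and 1633, 1509 and 1441 TPM against 1372, 1188 and 1075 TPM at 12 h. RPS21 changed by -0.49, -0.42 and -0.41 on the log2 scale and had -0.34 under IFN at 12 h (SE 0.09), and limma's adjusted p was 0.00454 and 0.0147 in mock cells and 0.0171 under IFN at 8 h. The 12 h difference under IFN did not pass the threshold without the block and had an adjusted p of 0.0132 with it.

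RPS2, which lines the mRNA entry channel, had 3839, 4119 and 3962 TPM in siFLuc mock cells at 8 h and 3380, 3601 and 3353 TPM in siBOP1. Of the head proteins, RPS16 had 4391, 5236 and 4812 TPM against 3577, 3886 and 3851 TPM. RACK1, a WD-repeat scaffold on the head, had 1742, 1806 and 1757 TPM against 1467, 1468 and 1389 TPM. In each of these 3 genes the groups did not overlap. The limma log2 fold changes were -0.21 ± 0.05 (SE, adjusted p = 0.0413) for RPS2, -0.35 ± 0.08 (adjusted p = 0.0331) for RPS16 and -0.30 ± 0.06 (adjusted p = 0.0102) for RACK1. These changes are smaller than that of RPSA. Without siFLuc mock 8 h library 2, the highest of its group for 27 members, 2 members still fell, RPSA and RPS21. In the other 3 comparisons none of the 3 genes passed without the block, and with the block RPS2 fell in each of them. RPS16 fell with the block in mock cells at 12 h and under IFN at 8 h. RACK1 fell with the block at 12 h, in mock cells and under IFN.

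Members that fell with siBOP1 only with the block in mock cells at 8 h were RPS4X, RPS6, RPS13, RPS18, RPS20 and RPS23. RPS6, the S6 kinase substrate, had 2679, 3121 and 2630 TPM with siFLuc and 2257, 2685 and 2257 TPM with siBOP1, so the groups overlapped. RPS23, a decoding-centre protein, had 2994, 3210 and 2965 TPM against 2499, 2876 and 2431 TPM. RPS18, at an intersubunit bridge, had 2700, 2916 and 2321 TPM against 2252, 2350 and 2001 TPM. RPS23 was separated between the groups and RPS18 was not. RPS20, on the head, had 1638, 1821 and 1582 TPM against 1314, 1347 and 1268 TPM. RPS13, at the subunit interface, had 1792, 1868 and 1750 TPM against 1560, 1574 and 1499 TPM. RPS4X, encoded on the X chromosome, had 1421, 1525 and 1375 TPM against 1211, 1261 and 1221 TPM. The last 3 genes did not overlap between the siRNAs.

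Several members showed no change that passed the test in any siBOP1 comparison. FAU had 725, 822 and 771 TPM in siFLuc mock cells at 8 h and 681, 787 and 717 TPM in siBOP1, with log2 fold changes between -0.08 and 0.05 over the 4 comparisons. RPS28 had 328, 336 and 332 TPM against 300, 333 and 338 TPM. RPS27A, made as a fusion with ubiquitin, had 2255, 2383 and 1847 TPM against 1932, 1982 and 1714 TPM. All 3 overlapped between the siRNAs. RPS19 had 6911, 7641 and 6458 TPM against 6312, 6099 and 6109 TPM in the same groups. Its difference of -0.18 ± 0.10 (SE, log2) did not pass although the groups did not overlap, and its siBOP1 and siFLuc values at 12 h did overlap. RPS27 had 3716, 4774 and 3776 TPM against 3250, 4053 and 3339 TPM at 8 h in mock cells and overlapped as well.

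By position, the 16 body and platform members had medians of -0.20, -0.16, -0.14 and -0.11 over the 4 siBOP1 comparisons and the 13 head members -0.20, -0.07, -0.06 and -0.07. By transcript start, the 20 members with the pyrimidine run had medians of -0.21, -0.15, -0.11 and -0.10 and the 6 without it -0.15, -0.05, -0.08 and -0.03. These groups differ by less than the spread of their own members, which ran from -0.98 to -0.08 among those with the run in mock cells at 8 h.

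Other gene lists moved by similar amounts. Over the 4 siBOP1 comparisons 0.666%, 0.697%, 0.760% and 0.268% of all genes fell, or 2.58%, 3.35%, 3.84% and 1.61% with the block. The 47 large-subunit ribosomal protein genes had medians of -0.17, -0.13, -0.07 and -0.07 with siBOP1, and 3, 1, 3 and 1 of them fell, or 14, 7, 8 and 3 with the block. RPLP0, the stalk base protein of the 60S subunit, fell in all 4, with log2 changes of -0.63, -0.56, -0.67 and -0.60. Of 60 small-subunit assembly factors 0, 3, 2 and 0 fell, or 5, 15, 14 and 5 with the block, with medians of -0.14, -0.21, -0.18 and -0.17. In mock cells at 8 h 6 of the 60 had an unadjusted limma p under 0.05 and under IFN at 12 h 7 had. Of all 16062 genes 2076 and 1444 had such a p there, so the shares of the assembly factors were near the background. The methyltransferase FBL and the methyltransferase partner TRMT112 fell in 2 comparisons each. Of 20 genes of the translation machinery and others known for TOP starts 1, 1, 0 and 0 fell, or 7, 5, 5 and 2 with the block. Under IFN 12 and 9 of these 20 had an unadjusted limma p under 0.05 at 8 h and 12 h, against 2191 and 1444 of all 16062 genes. The ratio of summed TPM of the 29 members to the 47 large-subunit genes ran from 0.627 to 0.684 over all libraries and overlapped between the siRNAs.

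**Figure D3:**
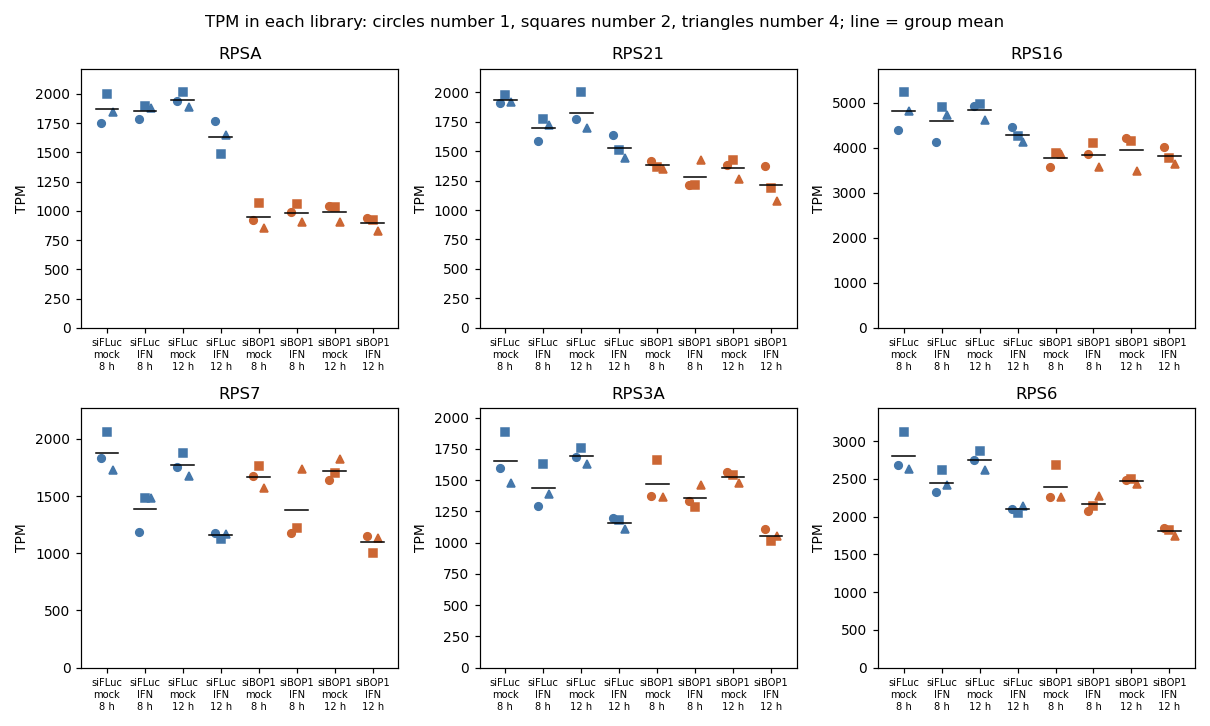
TPM of RPSA, RPS21, RPS16, RPS7, RPS3A and RPS6 in each library (linear axes from 0), by group, with siFLuc in blue, siBOP1 in orange, the library number as the marker and the group mean as a line. RPSA separates by siRNA (828 to 1071 against 1483 to 2015 TPM), while RPS7, RPS3A and RPS6 are lowest in the IFN 12 h groups of both siRNAs.

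The comparison of IFN with mock asks how the members responded to interferon with and without BOP1. After 12 h of IFN the mRNAs of RPS7, RPS3A, RPS6 and RPS20 fell in both siRNA groups, RPS7 to 65.4% of its mock mean with siFLuc and 63.7% with siBOP1. RPS2, RPS3 and RACK1 fell in both as well, by less. With siFLuc RPS4X, RPS13 and RPS26 also fell. At 8 h only RPS7 and RPS20 fell, and only with siFLuc. No member rose in the 4 comparisons, where 5.77%, 7.06%, 5.99% and 7.17% of all genes rose (siFLuc 8 h and 12 h, siBOP1 8 h and 12 h).

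In siFLuc cells 2 of 29 members fell at 8 h, where 5.07% of all genes fell, so the members' share was near the background. At 12 h 10 fell, against 6.43% of all genes. In siBOP1 cells 0 fell at 8 h (9.11% of all genes) and 7 fell at 12 h (7.58%). At 8 h 2 of the 29 had an unadjusted limma p under 0.05, against 4486 of all 16062 genes. The smallest adjusted p of a member there was 0.0594. With the library number as a block the counts were 5, 15, 1 and 10, and the shares of all genes 12.7%, 15.8%, 20.4% and 16.6%.

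The median log2 fold change of the members was -0.11 and -0.20 with siFLuc at 8 h and 12 h, and -0.03 and -0.17 with siBOP1. All tested genes had medians of -0.09, -0.06, -0.14 and -0.08. Below 0 were 27, 29, 17 and 29 members. The 8 h medians depended on single libraries. With siFLuc the median was -0.05 without mock library 2, -0.20 without mock library 4 and -0.20 without IFN library 2, and with siBOP1 it ran from -0.07 without IFN library 4 to 0.01 without IFN library 1 and 0.03 without mock library 2. In libraries 1 and 2 alone the siBOP1 medians were -0.11 at 8 h and -0.11 at 12 h. Since TPM has a fixed sum, the scale itself matters: rescaling by the median of ratios, which brings the median of all genes with siBOP1 at 8 h from -0.14 to 0.00, turned the members' median there to 0.13, left 3 of them below 0, and left 17 below 0 with siFLuc at 8 h. Under that rescaling 28 and 22 members were below 0 at 12 h with siFLuc and siBOP1, and the fallen members were 0 and 2 with siFLuc (RPS7 and RPS3A at 12 h) and 0 and 3 with siBOP1 (RPS7, RPS3A and RPS6 at 12 h). The members' medians under it were -0.02 and -0.14 with siFLuc and -0.10 with siBOP1 at 12 h. With quantile normalization they were -0.07 and -0.13 with siFLuc and -0.05 and -0.13 with siBOP1. In 8 members every IFN library lay below every mock library with siFLuc at 8 h (18.9% of all genes), in 20 at 12 h (15.1%), in 0 with siBOP1 at 8 h (26.7%) and in 16 at 12 h (19.2%).

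**Figure D4:**
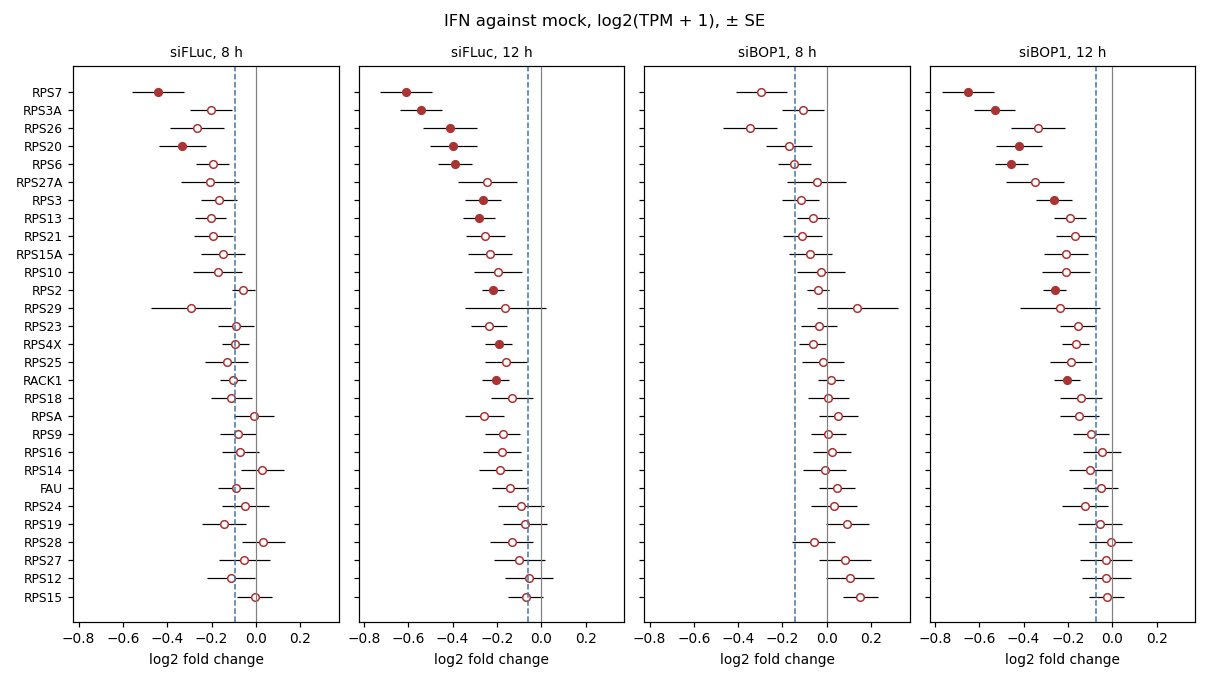
Log2 fold change (log2(TPM + 1) scale) of each member, IFN against mock, in 4 panels for siRNA and time, with bars for limma's standard error, filled points for adjusted p under 0.05, the grey line at 0 and the dashed line at the median of all genes. RPS7 reaches -0.61 and -0.65 at 12 h, RPS3A -0.54 and -0.53, while RPS12, RPS15 and RPS28 stay between -0.13 and 0 there.

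RPS7, a platform protein that can bind MDM2, had 1758, 1873 and 1673 TPM in siFLuc mock cells at 12 h and 1179, 1124 and 1168 TPM under IFN. With siBOP1 the values were 1643, 1698 and 1828 TPM against 1154, 1005 and 1133 TPM. The mock and IFN libraries did not overlap at 12 h with either siRNA. The limma log2 fold changes were -0.61 and -0.65 (SE 0.12, adjusted p = 9.14e-04 and 4.41e-04). At 8 h RPS7 had 1833, 2060 and 1725 TPM against 1184, 1484 and 1483 TPM with siFLuc, a change of -0.44 with an adjusted p of 0.0166. With siBOP1 it had 1671, 1759 and 1568 TPM against 1181, 1216 and 1738 TPM. Here the IFN library numbered 4 lay among the mock libraries and the other 2 lay well below them.

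RPS3A, a platform protein, had 1684, 1761 and 1630 TPM in siFLuc mock cells at 12 h and 1193, 1178 and 1110 TPM under IFN. With siBOP1 it had 1562, 1540 and 1476 TPM against 1105, 1013 and 1050 TPM. Mock and IFN were again fully separated. The limma changes were -0.54 and -0.53 (SE 0.09, adjusted p = 3.22e-04 and 3.89e-04). At 8 h the groups overlapped, with 1600, 1885 and 1479 TPM against 1297, 1629 and 1385 TPM in siFLuc cells and 1376, 1662 and 1361 TPM against 1330, 1284 and 1460 TPM in siBOP1 cells. Its pseudogene rows went from 276 ± 40.9 TPM (SD, n = 3) in siFLuc mock cells at 12 h to 161 ± 15.4 under IFN.

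RPS6 had 2753, 2866 and 2624 TPM in siFLuc mock cells at 12 h and 2101, 2044 and 2144 TPM under IFN. With siBOP1 it had 2486, 2504 and 2433 TPM against 1849, 1826 and 1739 TPM. The libraries of each group lay close together and mock and IFN did not overlap. The limma changes were -0.39 and -0.46 (SE 0.08, adjusted p = 9.52e-04 and 1.72e-04). RPS7 and RPS3A with both siRNAs, and RPS6 with siBOP1, passed the threshold at 12 h under all 10 alternative settings and with any 1 library left out. RPS6 with siFLuc passed in 9 of the 10.

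RPS20, a head protein ubiquitinated on collided ribosomes, had 1559, 1685 and 1482 TPM in siFLuc mock cells at 12 h and 1223, 1175 and 1186 TPM under IFN. With siBOP1 it had 1314, 1343 and 1546 TPM against 1150, 998 and 989 TPM. The groups did not overlap, and the limma changes were -0.40 and -0.42 (adjusted p = 0.0132 and 0.00816). At 8 h with siFLuc RPS20 had 1638, 1821 and 1582 TPM against 1220, 1463 and 1327 TPM, a change of -0.33 with a limma adjusted p of 0.0458. It passed there in 1 of 6 fits with 1 library left out. With siBOP1 at 8 h the IFN libraries had 1055, 1039 and 1434 TPM against 1314, 1347 and 1268 TPM in mock. As in RPS7, the library numbered 4 was the one within the mock range or above it.

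RPS2 had 3963, 3934 and 4095 TPM in siFLuc mock cells at 12 h and 3475, 3342 and 3495 TPM under IFN. With siBOP1 it had 3461, 3527 and 3640 TPM against 2974, 2896 and 3001 TPM. The changes were small but the spread was narrow, and no library crossed: -0.22 and -0.26 (SE 0.05, limma adjusted p = 0.00582 and 0.00119). RPS3, a head protein at the mRNA entry channel, had 2347, 2498 and 2390 TPM against 2051, 2012 and 1960 TPM with siFLuc and 2103, 2197 and 2324 TPM against 2063, 1776 and 1695 TPM with siBOP1. Its limma changes were -0.26 with both siRNAs (adjusted p = 0.0350 and 0.0342). When 1 library was left out, RPS3 passed in 0 of 6 fits with siFLuc and in 2 of 6 with siBOP1. RACK1 had 1710, 1824 and 1805 TPM against 1513, 1552 and 1559 TPM with siFLuc and 1481, 1511 and 1607 TPM against 1424, 1350 and 1224 TPM with siBOP1. Its changes were -0.21 and -0.20 (limma adjusted p = 0.0233 and 0.0239), and it passed in 2 of 6 such fits with each siRNA.

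The calls made in siFLuc cells alone at 12 h, without the block, were those of RPS26, RPS13 and RPS4X. RPS26 had 323, 367 and 346 TPM in mock and 247, 265 and 266 TPM under IFN, a limma change of -0.41 (adjusted p = 0.0258). With siBOP1 it had 277, 318 and 304 TPM against 243, 205 and 266 TPM, a change of -0.33 that passed only with the block. RPS13 had 1684, 1842 and 1673 TPM against 1489, 1427 and 1364 TPM with siFLuc (-0.28, limma adjusted p = 0.0106). RPS4X had 1357, 1423 and 1338 TPM against 1214, 1206 and 1184 TPM (-0.19, limma adjusted p = 0.0411). With siBOP1 at 12 h RPS13 and RPS4X did not overlap between mock and IFN either. Both passed there only with the block (limma adjusted p = 0.033 and 0.00896). When 1 siFLuc library was left out at 12 h, RPS26 passed in 2 of 6 fits, RPS13 in 5 and RPS4X in 1. Passing with one siRNA and not with the other did not show a difference between them: the siRNA by IFN interaction passed for 0 members at either time, with 0 members at an unadjusted limma p under 0.05. The interaction passed for 0 of all 16062 genes as well.

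With the block, RPSA, RPS14, RPS16, RPS21 and RPS23 also fell with IFN in siFLuc cells at 12 h. RPS14, a platform protein, had 1802, 1960 and 1722 TPM in mock and 1684, 1659 and 1484 TPM under IFN. RPS23 had 2967, 3257 and 2906 TPM against 2637, 2650 and 2461 TPM, and RPS16 had 4939, 4968 and 4622 TPM against 4451, 4258 and 4129 TPM. In these 3 genes mock and IFN did not overlap, but the changes of -0.18 to -0.24 did not pass without the block.

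The members with changes near 0 that are given next overlapped between mock and IFN in siFLuc cells at 12 h. RPS12, on the beak of the head, had 2171, 2420 and 2014 TPM in siFLuc mock cells at 12 h and 2297, 2153 and 1909 TPM under IFN. RPS28 had 337, 382 and 303 TPM against 332, 315 and 282 TPM, and RPS19 had 6850, 7352 and 6074 TPM against 6866, 6582 and 5806 TPM. All 3 overlapped, with log2 fold changes of -0.05 ± 0.11, -0.13 ± 0.10 and -0.07 ± 0.10 (SE). RPS27 had 4146, 4614 and 4095 TPM against 4045, 4332 and 3635 TPM, and FAU 786, 915 and 738 TPM against 738, 758 and 704 TPM. Both of these overlapped too. RPS27A had 1909, 2113 and 1774 TPM against 1701, 1731 and 1464 TPM with siFLuc and 1814, 1865 and 2323 TPM against 1724, 1530 and 1443 TPM with siBOP1. RPS27A was not among the members nearest 0. It was separated with both siRNAs, yet its changes of -0.24 and -0.35 (SE 0.13) had limma adjusted p of 0.252 and 0.0833.

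A single library bore on the 8 h result with siBOP1. In the siBOP1 IFN 8 h library numbered 4 the members' sum was 6.01% of TPM, against 5.24% and 5.44% in the other 2, and 21 of the 29 members were highest in it. RPS29, a zinc-binding head protein, had 2920 TPM there against 1834 and 1997 TPM, and RPS27A 2290 TPM against 1610 and 1620 TPM. Without this library 3 of the 29 members fell with IFN in siBOP1 cells at 8 h and the members' median was -0.07. The share of all genes in that fit is not given here. With all libraries 9.11% of all genes fell and their median was -0.14, so the 3 calls are not read as a result about the members. The mitochondrial share was 10.9% in this library and 13.7% and 13.9% in the other 2, and its part in the result was not tested. RPS29 was the most variable member between libraries, with a coefficient of variation of 14.9% to 26.0% in 7 groups and no call in any comparison.

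**Figure D5:**
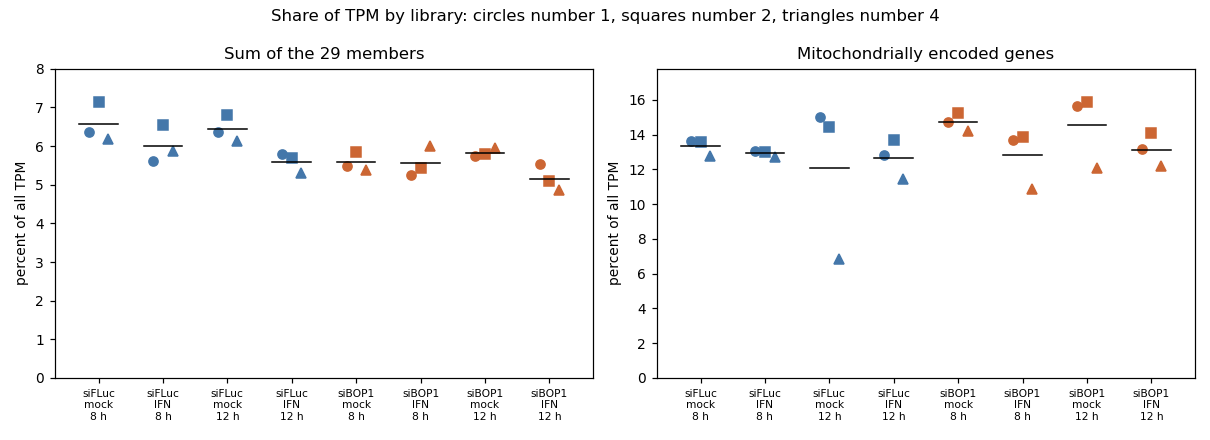
Percent of all TPM held by the 29 members (left) and by mitochondrially encoded genes (right) in each library, by group, with the library number as the marker and the group mean as a line. The members' share is highest in the siFLuc mock groups (6.13% to 7.15%) and lowest in siBOP1 IFN at 12 h (4.85% to 5.54%), and the siFLuc mock 12 h library numbered 4 has the lowest mitochondrial share, 6.86%.

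Codon content was looked at because the series concerns non-optimal codons. The third codon positions of the members held between 38.9% (RPS23) and 93.2% (RPS15) G or C, with a median of 56.0% against 58.8% in 12617 tested genes with a coding sequence in GENCODE 29. RPS3A (43.4%), RPS20 (43.3%) and RPS6 (45.2%) were at the low end and fell with IFN, but RPS23 was lower still and did not pass without the block, and RPS7 (56.4%) was at the middle. RPS13 (44.1%) was also at the low end and fell with siFLuc at 12 h. RPS12 (45.1%) was too, yet stood at 96.3% of its mock mean there. Across the 29 genes Spearman's rho of this share with the IFN change was 0.40 and 0.43 with siFLuc at 8 h and 12 h, and 0.32 and 0.42 with siBOP1. With the siBOP1 change it was 0.22, 0.08, 0.13 and 0.20. The points share their libraries and normalisation, so these are descriptions only.

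By transcript start, the 20 members with the pyrimidine run had a median IFN change at 12 h of -0.19 with siFLuc and -0.15 with siBOP1. The 6 members without it had -0.18 and -0.20. RPS7 and RPS26, printed above without capitals, were among those with the most negative changes, whereas RPS15, also without the run, had -0.07 and -0.03. By position the 16 body and platform members had -0.23 and -0.17 at 12 h and the 13 head members -0.16 and -0.19.

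With IFN at 12 h the large-subunit genes had medians of -0.17 with siFLuc and -0.12 with siBOP1. The translation and TOP genes had -0.26 and -0.27, and the small-subunit assembly factors -0.15 and -0.07. All tested genes had -0.06 and -0.08, so with siBOP1 the assembly factors were at the level of all genes. Of the 47 large-subunit genes 13 fell with siFLuc and 12 with siBOP1 at 12 h, and at 8 h 6 and 5. With the block 24 and 16 fell at 12 h and 7 and 7 at 8 h. RPL23, which can bind MDM2, and RPL5, which joins the 5S RNA particle, fell in all 4 comparisons, and so did RPL6 and RPL10A. RPL23 had log2 changes of -0.84, -1.21, -0.73 and -1.02 (siFLuc 8 h and 12 h, siBOP1 8 h and 12 h). Those are larger changes than that of any small-subunit member. Of the 20 translation and TOP genes 2, 11, 3 and 11 fell, or 5, 15, 5 and 13 with the block. EIF4B, a helicase cofactor of initiation, fell in all 4 with changes of -0.79, -1.11, -0.87 and -1.16, and so did EIF3L, an eIF3 subunit, with -0.49, -0.87, -0.54 and -0.99. Of the 60 small-subunit assembly factors 2, 1, 1 and 2 fell, or 4, 17, 9 and 7 with the block, and DCAF13 fell in all 4. In the same order 5.07%, 6.43%, 9.11% and 7.58% of all genes fell, or 12.7%, 15.8%, 20.4% and 16.6% with the block.

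Between 8 h and 12 h few members moved. In mock cells 0 members passed with either siRNA (0.0125% of all genes fell with siFLuc and 0.0934% with siBOP1), and 0 had an unadjusted limma p under 0.05. Under IFN 0 fell with siFLuc (0.697% of all genes) and 1 fell with siBOP1 (0.511%). With siFLuc 6 of the 29 had an unadjusted limma p under 0.05, as had 3094 of all 16062 genes, a similar share. No member rose between the times, where 0.118% and 2.83% of all genes rose in mock and IFN cells with siFLuc and 0.137% and 2.45% with siBOP1. The member that fell was RPS3A, with a limma change of -0.36 (adjusted p = 0.0407), and it no longer passed when any 1 library of the 2 groups was left out. With the block 4 members fell under IFN with siFLuc (4.16% of all genes) and 3 with siBOP1 (3.11%), and RPS3A, RPS6 and RPS2 were in both. The block was set within each time and does not pair 8 h with 12 h. The spread it removes still bears on this comparison, so its p-values here tend to be too small and these calls are not relied on. The time by IFN interaction passed for 0 members with either siRNA, and for 0.00623% of all genes, in the lower direction, with siFLuc. It had an unadjusted limma p under 0.05 for RPS2 and RPS3A with siFLuc and for RPS2, RPS3A, RPS6, RPS7 and RACK1 with siBOP1. Of all 16062 genes, 575 with siFLuc and 603 with siBOP1 had such a p for this interaction. For RPS3A the interaction was -0.34 ± 0.13 and -0.43 ± 0.13 (SE), with adjusted p of 1.00 and 1.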

How the data were processed

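The deposited table holds TPM values that the authors computed for each gene; the aligner, quantification tool, genome build and annotation are not given in the sources used here. Of its 24 columns, 16 matched a labelled replicate and 8, numbered 4, matched only their group. Tests ran on log2(TPM + 1), for genes that reached 1 TPM in 3 or more libraries, in limma 3.58.1 and R 4.3.3 (1 mean per group, all 24 libraries, intensity trend, threshold 0.05), which understates changes of low genes. The procedure was tested on simulated data in which libraries varied independently and the changes were larger than those of most members. That test does not cover small changes or libraries that deviate together. Same-numbered libraries deviated together (r from 0.115 to 0.508 across genes, over 0.1 in every pair). The counts of fallen members with the column number as a block are therefore printed as well. Of the calls of single members that the block changed, only some are printed. The columns give the library number, not the labels, and the block was fitted separately at 8 h and at 12 h.

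Symbols came from a table of Ensembl IDs, start windows from RefSeq (GRCh38.p14), and coding sequences from GENCODE 29. The members and comparison lists were chosen with earlier results of these data known. Named in full are members past the threshold in any comparison, with or without the block, the 3 highest and 3 lowest by mean TPM, and RPS27A, FAU and RACK1; from other lists only genes past it in at least 2 comparisons; RPS12 and RPS29 were added after their values were seen. Alternatives were a pseudocount of 0.1, no filter, a mean of 5 TPM, median-of-ratios and quantile scaling, TPM without mitochondrial genes, no trend, only the groups compared, only libraries 1 and 2, the block, and leaving out each library.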

Additional observations from a re-analysis of the deposited data

How the results depend on the processing

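Of 280 alternative counts of fallen members, 215 stayed within 1.5 times the reported count and 65 did not. The 280 include the interactions and 12 h against 8 h in mock cells, where 0 members passed in every fit. All 65 that moved lay in the other comparisons, so the 215 overstate how stable the counts above 0 were. Signs were followed only for members past the threshold in the comparison concerned, with or without the block, and none of those reversed. That choice favours stable signs. Other members did change sign, as the counts below 0 under median-of-ratios scaling show. In the order siFLuc 8 h, siFLuc 12 h, siBOP1 8 h, siBOP1 12 h, the IFN counts reported were 2, 10, 0 and 7, and the siBOP1 counts (mock 8 h, mock 12 h, IFN 8 h, IFN 12 h) 5, 2, 2 and 1. With the replicate block they were 5, 15, 1 and 10 for IFN and 11, 6, 5 and 5 for siBOP1, and for 12 h against 8 h under IFN 4 with siFLuc and 3 with siBOP1. The block does not pair 8 h with 12 h, so its counts between the times rest on p-values that tend to be too small. Median-of-ratios scaling gave 0, 2, 0 and 3 for IFN, 2, 1, 1 and 1 for siBOP1, and 2 for 12 h against 8 h with siBOP1 under IFN. Quantile scaling gave 4 (IFN, siFLuc 12 h), 2 (IFN, siBOP1 8 h) and 3 (siBOP1, mock 8 h). TPM without mitochondrial genes gave 1 (IFN, siBOP1 8 h), 3 (siBOP1, mock 8 h) and 0 (12 h against 8 h, siBOP1 IFN). With no filter there were 1 (IFN, siFLuc 8 h), 3 (siBOP1, mock 8 h) and 0 (12 h against 8 h, siBOP1 IFN). Without the trend there were 1 (IFN, siFLuc 8 h), 2 (siBOP1, mock 8 h) and 0 (12 h against 8 h, siBOP1 IFN). A fit of only the groups compared gave 0 and 6 (IFN, siFLuc), 2, 1 and 1 (siBOP1, mock 8 h, mock 12 h and IFN 8 h) and 0 (12 h against 8 h, siBOP1 IFN). Libraries 1 and 2 alone gave 4 and 4 (IFN at 8 h, siFLuc and siBOP1), 3 (siBOP1, IFN 8 h) and 1 (12 h against 8 h, siFLuc IFN), and turned the members' median for 12 h against 8 h in siBOP1 IFN from -0.11 to 0.01. A pseudocount of 0.1, and a mean of 5 TPM, gave 2 (siBOP1, IFN 12 h). Apart from the block, the shares of all genes that fell under these settings are not given here. The counts therefore do not tell a change in the members from a change in all genes.

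Leaving out 1 library gave 0 to 3, 4 to 8, 0 to 3 and 4 to 7 for IFN, 2 to 5, 1 to 2, 1 to 2 and 1 to 2 for siBOP1, and 0 to 1 and 0 to 0 for 12 h against 8 h under IFN with siFLuc and siBOP1. For the members' medians, leaving out 1 library gave -0.20 to -0.05, -0.23 to -0.17, -0.07 to 0.03 and -0.24 to -0.12 for IFN, and -0.25 to -0.14, -0.16 to -0.11, -0.16 to -0.06 and -0.15 to -0.07 for siBOP1. The lowest counts came without siFLuc mock 12 h library 2 (4), siFLuc mock 8 h library 2 (0 for IFN and 2 for siBOP1) and siBOP1 mock 12 h library 4 (4). The cause of these shifts was not tested. Depth is unknown for TPM, so no counting error is given, and 3 libraries a group limit the precision of changes as small as those of most members.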

Other observations

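Beyond the members' own rows, the 5 pseudogene rows of RPS28 summed to 705 ± 111 TPM (SD, n = 3) in siFLuc mock cells at 8 h and 854 ± 84.4 at 12 h, against 332 ± 3.99 and 341 ± 40.0 for RPS28. In siBOP1 cells under IFN at 8 h they had 854 ± 87.9 TPM against 311 ± 16.4. Which of the rows the reads belong to was not tested.

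The libraries numbered 2 were the highest of their group for 27 members in siFLuc mock cells at 8 h, 25 under IFN at 8 h and 27 in mock cells at 12 h. In siBOP1 cells the highest library was the one numbered 2 for 21 members in mock cells at 8 h, the one numbered 4 for 21 under IFN at 8 h and the one numbered 1 for 24 under IFN at 12 h. Within same-numbered libraries, the members' median siBOP1 change under IFN at 8 h was -0.10, -0.27 and 0.05 for the numbers 1, 2 and 4, and the IFN change with siBOP1 at 8 h was -0.05, -0.12 and 0.10.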
